A study of Mus musculus with 60 samples.

Results

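The genes described here are 30 genes of the oligodendrocyte lineage and of central myelin. They were chosen by name from the functions of their products, out of 46480 genes counted by RNA-Seq in mouse dentate gyrus (DG), and all 30 had enough counts to be tested, among 17040 tested genes. By role they were 13 genes of myelin structure, 6 of myelin lipids and metabolism and 2 transcription factors of myelinating cells. There were also 4 transcription factors grouped as lineage-wide, 2 genes of oligodendrocyte precursors and 3 genes of newly committed cells. The lineage-wide group is Olig1, Olig2, Sox10 and Nkx2-2, though Nkx2-2 acts when precursors differentiate. The first 3 roles (21 genes) are called mature members below. RNA-Seq had been made of whole tissue punched separately from dorsal and ventral DG of male C57BL6J mice, weaned on postnatal day 22, kept for 8 weeks in standard housing (SH) or an enriched environment (EE), and killed on day 80. SH mice lived in small groups in ordinary cages, and EE mice lived in larger groups in a large cage with running wheels and toys that were changed, so space, company and running cannot be told apart. A sample was tissue pooled from several mice, and dorsal and ventral samples with the same housing and replicate number came from the same mice. Dorsal DG was punched from coronal slices and ventral DG from horizontal slices, so region and slicing plane cannot be told apart. The 18 samples analysed were 4 SH pools (replicates 1, 2, 4 and 5) and 5 EE pools (replicates 1 to 5), each with a dorsal and a ventral sample, and no group differed from another in strain, sex or age.

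Oligodendrocytes wrap axons in myelin, a stack of membrane that speeds conduction, and they arise throughout life from dividing precursors that carry the growth factor receptor PDGFRA and the proteoglycan NG2. Precursors that commit to the lineage pass through a short stage marked by GPR17, switch on the factor MYRF, and then make the proteins and lipids of myelin in bulk. The factors OLIG1, OLIG2 and SOX10 are present from precursor to myelinating cell, so their RNA follows the whole lineage more than a single stage.

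Each sample held between 22919364 and 28301861 fragments on genes, and no 2 samples had identical counts. Levels of a gene are given as CPM, the count of a gene relative to all fragments on genes in its library after TMM scaling, and levels of different genes are compared as CPM per kilobase of transcript. Differences are log2 fold changes with their standard errors from edgeR's quasi-likelihood test, with p-values adjusted by the Benjamini-Hochberg method over all 17040 genes (FDR). A gene is said to be called when its FDR was under 0.05 and its fold change at least 20%. In each group, 1 sample was the highest for most of the 21 mature members. Among the 5 ventral EE samples this was replicate 3, for 17 of them, while ventral EE replicate 5 was the lowest for 18. Dorsal SH replicate 2 was the highest of its group for 16, ventral SH replicate 1 for 15 and dorsal EE replicate 2 for 13. Ventral EE replicate 3 was thus not alone in this.

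The tissue held RNA of all stages. Per length, Mbp was the highest member with a mean of 548 CPM per kilobase over the 18 samples, and Mobp followed at 167.5. Both encode abundant myelin proteins. Qdpr, an enzyme that recycles the cofactor tetrahydrobiopterin and is not limited to these cells, stood at 98.4 CPM per kilobase and Cnp, a protein of the uncompacted myelin layers, at 79.8. The precursor genes were lower, with Pdgfra at 12.9 and Cspg4 at 3.43 CPM per kilobase. At the low end were the transcription factor Myrf at 2.54, the newly committed gene Enpp6 at 1.86 and the transcription factor Nkx2-2 at 1.38 CPM per kilobase. Nkx2-2 rested on 26 to 67 fragments per sample, and Mbp on 20895 to 33783.

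Between dorsal and ventral DG the members differed little. Of the 30 members, 9 passed an FDR of 0.05 when the regional differences found in SH and in EE were averaged, which is 30.0% of them, whereas 58.4% of all tested genes passed. Higher in dorsal DG were 6 of the 30 members, against 29.0% of all genes, and all 6 were mature members (Myrf, Mag, Tspan2, Cldn11, Cnp and Ermn). They made up 28.6% of the 21 mature members, near the 29.0% of all genes. Higher in ventral DG were 3 of the 30 members, against 29.3% of all genes. These were the lineage factors Olig1 and Olig2 and the precursor receptor Pdgfra. With a fold change of at least 20% asked for as well, only Myrf and Olig1 were called, 6.67% of the members against 32.7% of all genes. The median log2 fold change was 0.06 over the 21 mature members, -0.20 over the 4 lineage-wide factors and -0.005 over all genes tested. In bulk tissue, fewer cells of a type and less RNA per cell cannot be told apart.

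**Figure D1:**
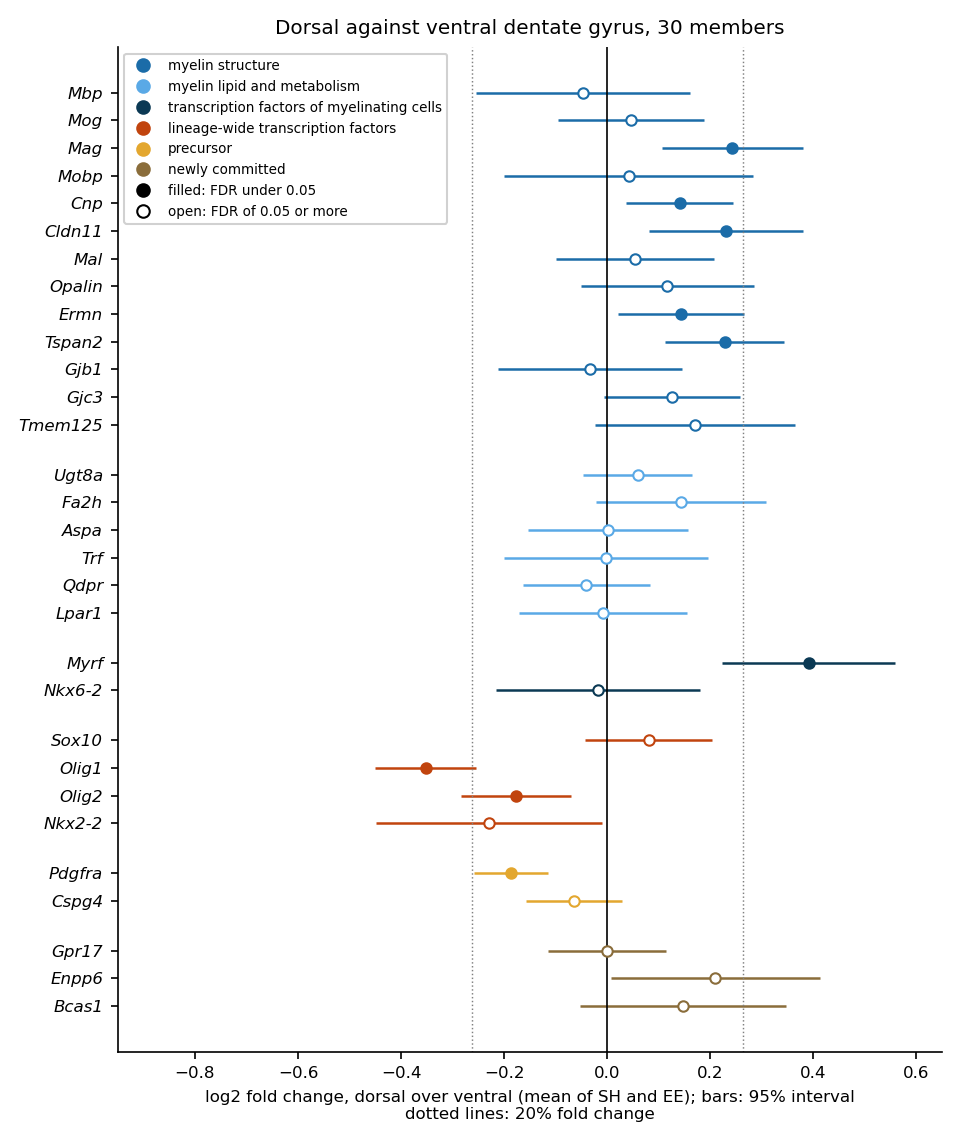
Log2 fold change of dorsal over ventral DG for each of the 30 members, averaged over SH and EE, with its 95% interval. Members are grouped by role, filled points had an FDR under 0.05 (9 members), and only Myrf at 0.39 and Olig1 at -0.35 lie beyond the dotted lines of a 20% fold change.

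The 250 bases before the start are shown for 4 of the 9 genes that passed the FDR. Mag, Cldn11 and Ermn were higher in dorsal DG and Pdgfra was higher in ventral DG. Of the others, Myrf and Olig1 had no promoter to show, and those of Tspan2, Cnp and Olig2 are not shown. The 4 are examples and do not stand for the 9. The stretches shown are from RefSeq for GRCm38.p6, run 5′ to 3′ on the strand of the gene, and lie outside the annotated gene. Capitals mark matches, on either strand, to CAGCTG or CAGATG (E-boxes of the kind bHLH factors such as OLIG2 bind), ACAAAG or ACAATG (the core that SOX factors such as SOX10 bind) and CTGGCAC or CTGGTAC (the MYRF motif).
Mag, chr7:30914923-30915172, minus strand: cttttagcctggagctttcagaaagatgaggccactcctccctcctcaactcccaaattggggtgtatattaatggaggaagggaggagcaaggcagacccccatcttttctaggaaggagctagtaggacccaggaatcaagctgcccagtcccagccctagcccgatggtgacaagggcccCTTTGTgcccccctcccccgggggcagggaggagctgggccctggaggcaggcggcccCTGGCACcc
Cldn11, chr3:31149670-31149919, plus strand: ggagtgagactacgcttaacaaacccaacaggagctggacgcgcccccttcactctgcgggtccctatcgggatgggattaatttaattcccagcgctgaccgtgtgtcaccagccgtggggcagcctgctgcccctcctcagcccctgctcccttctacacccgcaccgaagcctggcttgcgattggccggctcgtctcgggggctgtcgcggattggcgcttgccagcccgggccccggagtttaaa
Ermn, chr2:58052865-58053114, minus strand: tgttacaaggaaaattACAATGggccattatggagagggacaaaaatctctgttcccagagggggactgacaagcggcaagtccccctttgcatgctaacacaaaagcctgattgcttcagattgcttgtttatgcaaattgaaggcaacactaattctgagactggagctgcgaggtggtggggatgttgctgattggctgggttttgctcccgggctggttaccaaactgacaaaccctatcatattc
Pdgfra, chr5:75152001-75152250, plus strand: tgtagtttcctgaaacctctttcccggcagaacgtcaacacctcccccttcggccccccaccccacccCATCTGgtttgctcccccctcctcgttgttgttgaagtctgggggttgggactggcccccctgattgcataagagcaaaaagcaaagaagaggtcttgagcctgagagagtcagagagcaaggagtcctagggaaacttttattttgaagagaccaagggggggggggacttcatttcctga
The Mag stretch held a SOX core and a MYRF motif, Ermn a SOX core, Pdgfra an E-box and Cldn11 no match to these letters. Over 300 bases (these 250 and the 50 after the start), CTGGCAC was found in 6 of 30 promoters of 22 members and in 5.01% of all 32851 promoters of the same length. ACAAAG was found in 33.3% against 18.7%, CAGATG in 30.0% against 17.2%, ACAATG in 16.7% against 12.6%, CTGGTAC in 3.33% against 2.24% and CAGCTG in 6.67% against 16.3%. Some promoters of a gene overlap, so the 30 are not independent, and a match is a stretch of letters and not a site shown to be bound.

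Among the myelin structure genes, 5 of 13 passed the FDR, all higher in dorsal DG, with a median log2 fold change of 0.12 over the 13. Mag (chr7:30899176-30914873 in GRCm38, minus strand) encodes a myelin-associated glycoprotein at the contact of myelin and axon. In SH replicates 1, 2, 4 and 5 it had 80.9, 82.4, 79.6 and 75.4 CPM in dorsal DG and 68.1, 62.9, 65.4 and 75.6 CPM in ventral DG. Under EE, replicates 1 to 5 had 89.1, 98.1, 87.6, 80.0 and 84.0 CPM in dorsal DG and 62.5, 71.0, 95.9, 75.8 and 61.3 CPM in ventral DG. Dorsal was higher in 7 of 9 pools, and within a housing the groups overlapped through ventral SH replicate 5 and ventral EE replicate 3. The log2 fold change was 0.24 ± 0.07 (SE), or 18.4%, with FDR = 0.00322 by edgeR.

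Tspan2 (chr3:102734529-102801513), a tetraspanin of myelin membranes, ran alongside. Its levels were 73.0, 68.4, 68.4 and 66.3 CPM in dorsal SH and 62.2, 55.0, 53.3 and 59.3 CPM in ventral SH. Under EE they were 77.1, 64.1, 66.8, 67.2 and 65.9 CPM in dorsal and 57.3, 58.5, 74.8, 56.4 and 51.9 CPM in ventral DG. The SH groups did not overlap, and the EE groups overlapped through ventral EE replicate 3 alone. Tspan2 was higher in dorsal DG in 8 of 9 pools, with a log2 fold change of 0.23 ± 0.06 (SE) and FDR = 0.00125 by edgeR. Cldn11, the claudin that seals the layers of central myelin, had a log2 fold change of 0.23 ± 0.07 (SE) with FDR = 0.00885 by edgeR and was higher in dorsal DG in 8 of 9 pools.

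Cnp and Ermn differed less. Cnp had a log2 fold change of 0.14 ± 0.05 (SE) with FDR = 0.0193 by edgeR. Ermn, the cytoskeletal protein ermin of mature oligodendrocytes, had 38.5, 37.0, 38.0 and 34.8 CPM in dorsal SH and 35.7, 33.0, 35.2 and 39.4 CPM in ventral SH. The EE samples had 43.8, 44.1, 39.4, 42.7 and 41.8 CPM in dorsal and 33.7, 35.1, 45.8, 35.7 and 29.4 CPM in ventral DG. The SH groups overlapped, and in EE ventral replicate 3 was above all 5 dorsal samples while the other 4 ventral samples were below them. Its log2 fold change over both housings was 0.14 ± 0.06 (SE) with FDR = 0.0416 by edgeR. With 1 pool left out at a time, Ermn passed in 2 of 9 fits (those without SH replicate 5 or EE replicate 3) and Cnp in 6 of 9 (not without SH replicate 2, SH replicate 4 or EE replicate 1).

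The most abundant myelin gene showed no such difference. Mbp, myelin basic protein, had 997, 1131, 935 and 807 CPM in dorsal SH and 1163, 953, 910 and 907 CPM in ventral SH. Under EE it had 1217, 1198, 981, 890 and 939 CPM in dorsal and 1145, 1377, 1324, 867 and 774 CPM in ventral DG. The regions overlapped throughout, and ventral EE held both the highest and the lowest of the 18 values. Its log2 fold change was -0.05, with a 95% interval from -0.25 to 0.16, and this interval lay within a fold change of 20% in either direction.

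Mog, myelin oligodendrocyte glycoprotein of the outermost layer, had 26.1, 28.1, 25.2 and 24.0 CPM in dorsal SH and 30.4, 23.6, 24.8 and 25.5 CPM in ventral SH. EE replicates 1 to 5 had 25.7, 31.2, 27.1, 27.2 and 26.9 CPM in dorsal and 25.9, 27.3, 31.0, 24.7 and 19.5 CPM in ventral DG. These groups overlapped, and the log2 fold change was 0.05 with a 95% interval from -0.09 to 0.19. Of the other myelin structure genes, Mobp, Mal, Opalin, Gjb1, Gjc3 and Tmem125 lay between -0.03 and 0.17 with FDR from 0.0959 to 0.783 by edgeR. Gjb1 and Gjc3 encode connexins of glial gap junctions.

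None of the 6 genes of myelin lipids and metabolism passed, and their log2 fold changes ran from -0.04 to 0.14. Fa2h, which makes the hydroxylated fatty acids of myelin lipids, was at 0.14 ± 0.08 (SE) and Ugt8a, which makes galactosylceramide, at 0.06 ± 0.05 (SE). Aspa, which splits N-acetylaspartate, was at 0.00 with a 95% interval from -0.15 to 0.16. Qdpr at -0.04, the receptor gene Lpar1 at -0.01 and Trf, encoding the iron carrier transferrin, at -0.002 completed the group. Choroid plexus also makes transferrin, and the ventral EE sample with the highest Trf (replicate 3, 11.8 CPM) also had the highest summed choroid plexus markers, given with the other cell types further on. That sample was also the highest of its group for 17 of the 21 mature members. By region, 10 of 10 choroid plexus markers were called higher in ventral DG, while Trf did not pass. The part of those cells in the Trf level was not tested.

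Myrf, the factor that drives myelin genes in committed cells (chr19:10208272-10240748, minus strand), was the member highest in dorsal DG. In SH it had 16.6, 13.2, 14.9 and 13.7 CPM in dorsal and 10.8, 9.96, 12.2 and 11.3 CPM in ventral DG. With EE the values were 14.8, 15.8, 15.7, 13.7 and 14.7 CPM in dorsal and 10.2, 10.2, 16.4, 9.88 and 10.6 CPM in ventral DG. Every ventral sample but EE replicate 3 lay below every dorsal sample. Myrf was higher in dorsal DG in 8 of 9 pools, by a log2 fold change of 0.39 ± 0.08 (SE) or 31.2%, with FDR = 0.000261 by edgeR. It was called in 9 of 9 fits that left out a pool. Nkx6-2, another factor of myelinating cells, was at -0.02 ± 0.10 (SE).

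Of the 4 lineage-wide factors, Olig1 and Olig2 passed the FDR, both higher in ventral DG. Olig1 (chr16:91269772-91271933) had 58.6, 63.1, 63.0 and 55.5 CPM in dorsal SH and 83.8, 77.5, 69.0 and 74.8 CPM in ventral SH. In the EE pools it had 62.0, 73.1, 62.8, 62.6 and 61.1 CPM in dorsal and 84.1, 90.9, 85.9, 77.3 and 74.1 CPM in ventral DG. Within each housing no ventral sample fell as low as a dorsal one, and ventral was higher in 9 of 9 pools. The log2 fold change was -0.35 ± 0.05 (SE), or -21.7%, with FDR = 1.34e-06 by edgeR, and Olig1 was called in 9 of 9 fits that left out a pool.

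Olig2, its neighbour on chromosome 16 (chr16:91225457-91228677), had 12.8, 13.9, 12.5 and 11.8 CPM in dorsal SH and 14.7, 15.5, 14.5 and 14.1 CPM in ventral SH. For EE the levels were 12.5, 14.6, 14.5, 15.3 and 12.2 CPM in dorsal and 15.6, 14.5, 16.9, 15.1 and 14.2 CPM in ventral DG. The SH groups did not overlap and the EE groups did. Its log2 fold change was -0.18 ± 0.05 (SE) with FDR = 0.00556 by edgeR, and ventral was higher in 7 of 9 pools. Nkx2-2, a repressor that acts when precursors differentiate, was at -0.23 ± 0.11 (SE) with FDR = 0.0688 by edgeR and was higher in ventral DG in 8 of 9 pools. Sox10, which stays on in myelinating cells, was at 0.08 ± 0.06 (SE) with FDR = 0.253 by edgeR, so it did not share the sign of the other 3.

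**Figure D2:**
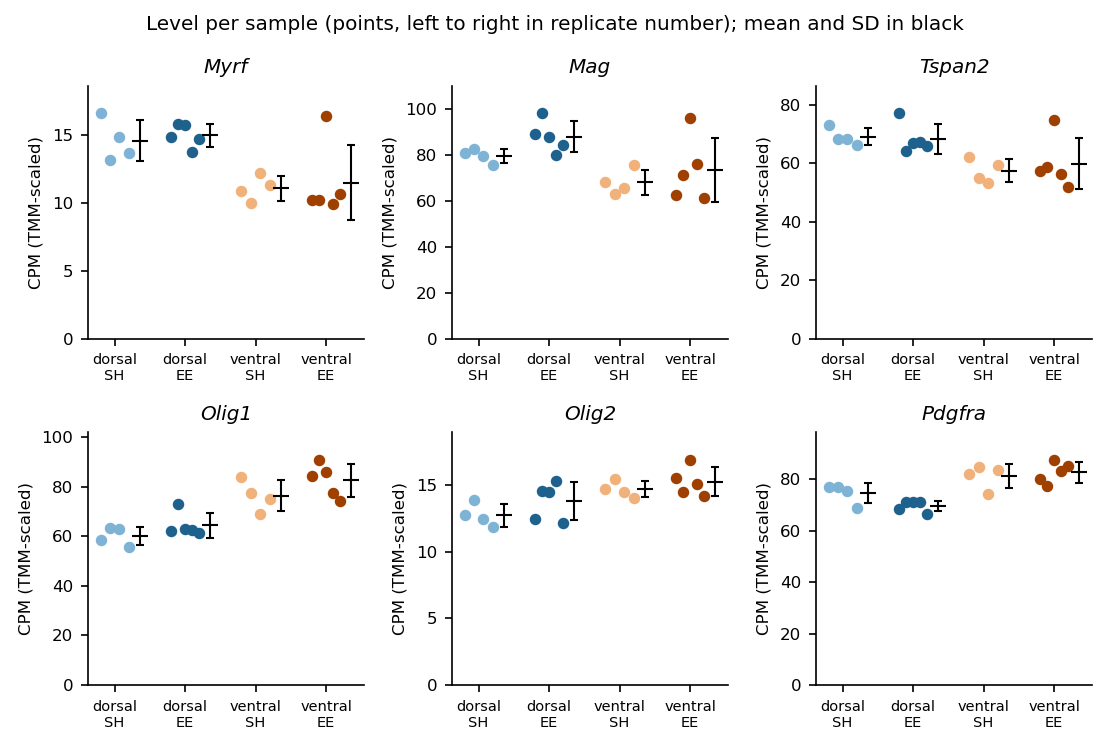
Level in CPM of 3 mature members (Myrf, Mag, Tspan2) and of Olig1, Olig2 and Pdgfra in each of the 18 samples, with mean and SD per group (4 SH and 5 EE samples per region). Ventral EE replicate 3, the middle of the 5 ventral EE points, lies with the dorsal samples for the 3 mature members (16.4 CPM for Myrf) and with the ventral samples for Olig1 (85.9 CPM).

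Of the precursor genes, Pdgfra (chr5:75152292-75198215), the receptor for the growth factor PDGF-A, was higher in ventral DG. In SH it had 77.0, 77.1, 75.5 and 69.0 CPM in dorsal and 82.2, 84.7, 74.5 and 83.7 CPM in ventral DG. The EE samples had 68.3, 71.1, 71.2, 71.0 and 66.6 CPM in dorsal and 80.1, 77.5, 87.7, 83.3 and 85.1 CPM in ventral DG. The EE groups were apart and the SH groups overlapped through ventral SH replicate 4. Pdgfra was higher in ventral DG in 8 of 9 pools, with a log2 fold change of -0.19 ± 0.03 (SE), or -12.1%, and FDR = 7.48e-05 by edgeR.

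Cspg4, which encodes NG2, had 25.0, 26.4, 27.7 and 26.2 CPM in dorsal SH and 24.3, 28.2, 26.4 and 28.2 CPM in ventral SH. Under EE it had 23.8, 28.5, 28.0, 28.2 and 24.5 CPM in dorsal and 28.5, 26.4, 29.3, 27.5 and 30.8 CPM in ventral DG. All groups overlapped, and the log2 fold change was -0.06 with a 95% interval from -0.16 to 0.03. Pericytes also carry NG2, and the pericyte gene Pdgfrb ran from 29.3 to 33.9 CPM in dorsal and 27.02 to 30.0 CPM in ventral DG. The part of pericytes in the Cspg4 level was not tested.

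No gene of newly committed cells passed. Gpr17, a receptor held for a short time at commitment, had 40.0, 44.7, 51.8 and 47.9 CPM in dorsal SH and 39.8, 44.9, 46.2 and 52.3 CPM in ventral SH. EE replicates 1 to 5 had 50.7, 54.2, 50.8, 48.4 and 43.5 CPM in dorsal and 51.1, 49.7, 54.9, 45.8 and 47.6 CPM in ventral DG. The regions overlapped throughout, and the 95% interval of the log2 fold change ran from -0.12 to 0.11. Enpp6, a phosphodiesterase of cells starting to myelinate, was at 0.21 ± 0.10 (SE) with FDR = 0.0707 by edgeR and higher in dorsal DG in 8 of 9 pools. Bcas1, a marker of early myelinating cells, was at 0.15 ± 0.10 (SE) with FDR = 0.195 by edgeR. With the 2 samples of a pool kept together as a block, Enpp6 (FDR = 0.011) and Bcas1 (FDR = 0.018) passed by edgeR, as did Gjc3 (FDR = 0.0366).

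The dorsal and ventral samples were also set against each other within each pool. The median log2 dorsal to ventral ratio over the mature members ran from -0.20 to 0.37 across the 9 pools and was above 0 in 6 of them. Over the 4 lineage-wide factors it ran from -0.37 to -0.07 and was above 0 in none. The mature median exceeded that of the lineage-wide factors in 9 of 9 pools, by 0.04 in EE replicate 3 and by as much as 0.63 in EE replicate 1. Against the 5 precursor and newly committed members, which had opposite signs among themselves, the mature median was higher in 6 of 9 pools. These medians are descriptions of chosen genes and were not tested.

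**Figure D3:**
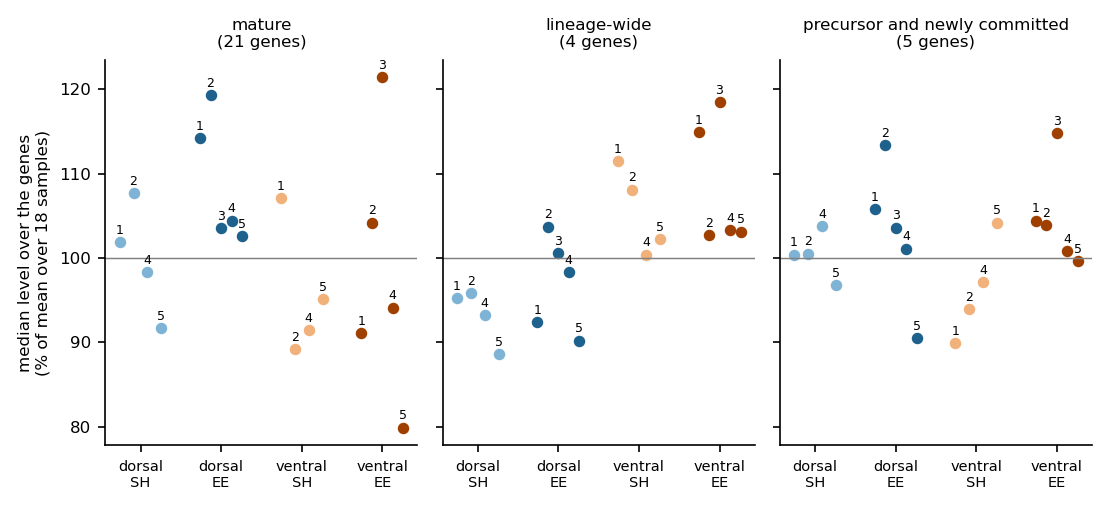
Median level of the 21 mature members, the 4 lineage-wide factors and the 5 precursor and newly committed members in each of the 18 samples, each gene taken as a percentage of its mean over the samples, with replicate numbers beside the points. Mature levels ran from 79.9% in ventral EE replicate 5 to 121.4% in ventral EE replicate 3, and all dorsal values of the lineage-wide factors lay between 88.6% and 103.7%.

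Within SH alone, 3 members were called (Myrf at 0.40 and Tspan2 at 0.26 higher in dorsal, Olig1 at -0.35 higher in ventral), 10.0% against 28.3% of all genes. Olig2 at -0.21 passed the FDR as well, which made 13.3% of the members against 41.7% of all genes. With 1 of the 4 SH pools left out, Olig1 passed the FDR each time, Myrf was lost without replicate 1, Tspan2 without replicate 2 or replicate 4, and Olig2 without any 1 of the 4. The fit that keeps pools as blocks passed 8 members in SH in place of 4, adding Bcas1, Enpp6, Mag and Pdgfra. The share of all genes passing in that fit was not taken, so the rise is not read as particular to the members.

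Within EE alone, 3 members were called as well (Myrf at 0.38 higher in dorsal, Olig1 at -0.36 and Nkx2-2 at -0.37 higher in ventral), 10.0% against 29.8% of all genes. Counting every member with an FDR under 0.05 gave 9, or 30.0% against 46.5% of all genes, which added Mag, Ermn, Cldn11, Tspan2 and Cnp in dorsal and Pdgfra in ventral DG. With 1 EE pool left out, 3 members passed without replicate 1 or replicate 5, 6 without replicate 2, 5 without replicate 4 and 13 without replicate 3, and Myrf, Olig1 and Pdgfra were among them in each of these 5 fits. Nkx2-2 was lost without SH replicate 4 or EE replicate 1, 4 or 5, and also with DESeq2, unstranded counts, RSEM counts, no filter on low counts or the filter on TPM. With pools as blocks, 6 members were called in EE (Cldn11, Mag, Myrf, Nkx2-2, Olig1 and Tmem125). Over both housings, where 2 members were called, 5 were called without EE replicate 3 and 6 without its ventral sample alone. Mag joined Myrf and Olig1 without SH replicate 5 or EE replicate 4. The percentages of all genes given here are those of the main fit. Those of the other fits were not taken, so these changes in count are not read as particular to the members.

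No member was called between EE and SH in either region. In dorsal DG, edgeR called 0 members between EE and SH, against 0.634% of all genes, and DESeq2 and edgeR's likelihood ratio test also called 0. At an unadjusted p under 0.05 there was 1 member, Ermn, against 8.81% of all genes. In ventral DG the count was likewise 0 by all 3 tests, against 0.241% of all genes, with 1 member, Aspa, at an unadjusted p under 0.05 against 7.58%. The interaction of region and housing passed for 0 members, against 0.00587% of all genes, and no member had an unadjusted p under 0.05 against 3.25%. The 95% intervals of the members together spanned -0.50 to 0.50 for dorsal samples and -0.45 to 0.56 for ventral samples, so changes of the size seen between regions were within what these pools allow for many members.

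Ermn came closest in dorsal DG. Its dorsal levels, given above, were 34.8 to 38.5 CPM in SH and 39.4 to 44.1 CPM in EE, so the groups did not overlap, and the log2 fold change was 0.19 ± 0.08 (SE) with FDR = 0.472 by edgeR. In ventral DG it was 0.00 ± 0.08 (SE), and the difference between the regions was 0.19 ± 0.12 (SE) with FDR = 1.0 by edgeR. Pdgfra in dorsal DG was lower in EE than in SH by -0.10 ± 0.05 (SE) with FDR = 0.573 by edgeR, and in ventral DG the value was 0.03 ± 0.05 (SE). Its difference between the regions was -0.13 ± 0.07 (SE) with FDR = 1.0 by edgeR, and the dorsal groups overlapped through SH replicate 5.

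Aspa was lowest relative to SH in ventral DG. There it had 13.8, 11.7, 13.3 and 12.2 CPM in SH and 10.3, 12.1, 14.2, 9.22 and 8.71 CPM in EE replicates 1 to 5, and the groups overlapped. In dorsal DG it had 12.4, 13.6, 11.6 and 11.6 CPM in SH and 12.1, 12.1, 10.9, 10.4 and 10.98 CPM in EE. The log2 fold changes were -0.23 ± 0.11 (SE) in ventral DG with FDR = 0.644 by edgeR and -0.12 ± 0.11 (SE) in dorsal DG with FDR = 0.81 by edgeR. Olig1 was at 0.10 ± 0.07 (SE) in dorsal and 0.11 ± 0.07 (SE) in ventral DG, with FDR = 0.743 by edgeR in both.

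The other members lay close to SH as well. The log2 fold changes were positive for 19 of the 21 mature members in dorsal DG with a median of 0.12, and for 14 of 21 in ventral DG with a median of 0.05, beside medians near 0 over all genes in both regions. Mbp was at 0.11 ± 0.14 (SE) in dorsal and 0.16 ± 0.14 (SE) in ventral DG, and Mog at 0.10 ± 0.10 (SE) and -0.03 ± 0.10 (SE). Olig2 was at 0.11 ± 0.07 (SE) and 0.06 ± 0.07 (SE), Cspg4 at 0.01 ± 0.06 (SE) and 0.09 ± 0.06 (SE), and Gpr17 at 0.10 ± 0.08 (SE) and 0.12 ± 0.08 (SE). These genes were measured in the same samples, so their signs are not independent of each other. In dorsal EE the mature median was 114.2% and 119.3% of the mean in replicates 1 and 2 and 102.6% to 104.4% in the other 3, where dorsal SH ran from 91.7% to 107.7%.

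**Figure D4:**
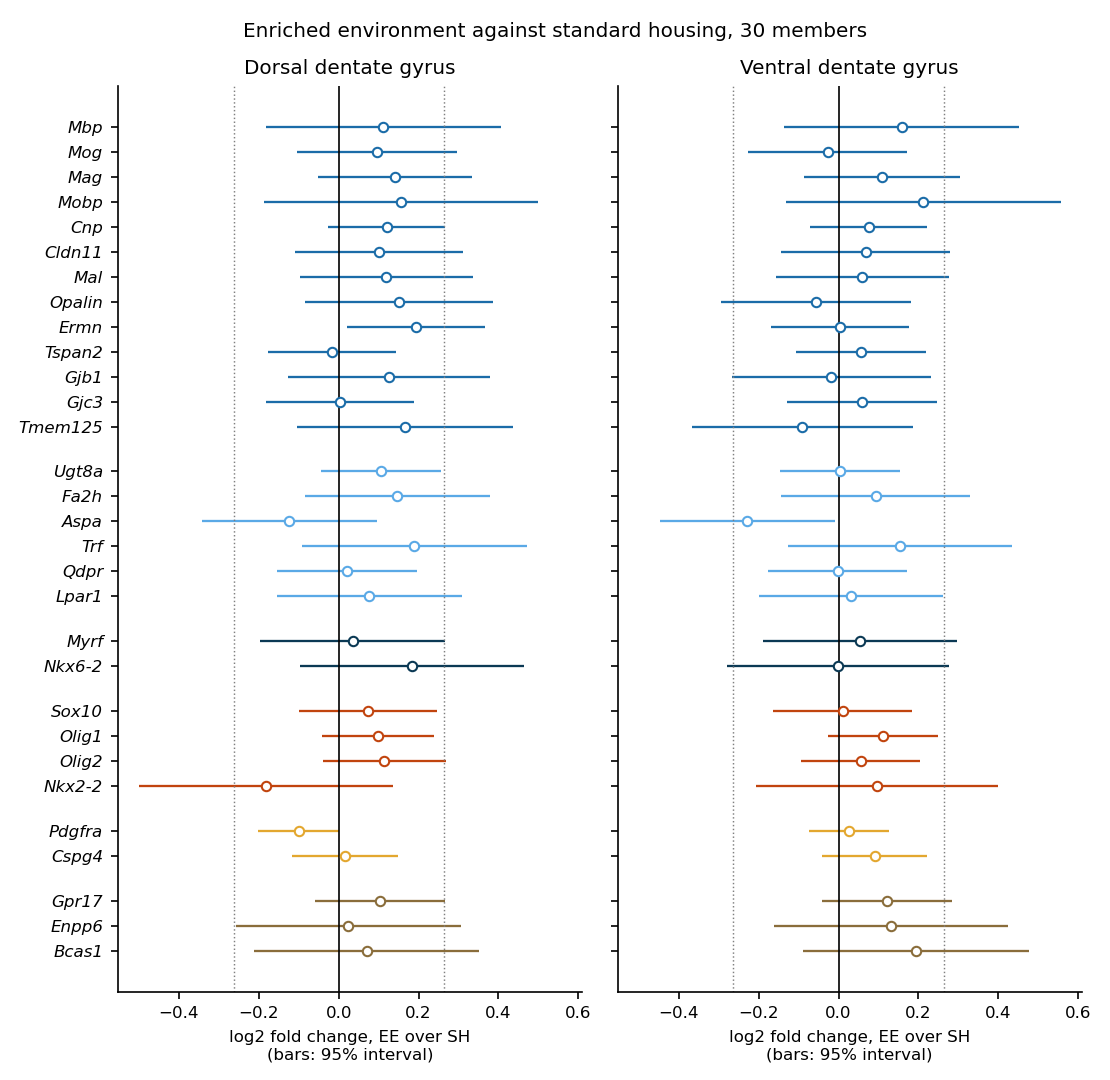
Log2 fold change of EE over SH for each of the 30 members in dorsal and in ventral DG, with 95% intervals and members grouped by role as in the plot of dorsal against ventral DG. No member had an FDR under 0.05 in either region, and the intervals of Ermn in dorsal DG (0.02 to 0.37) and Aspa in ventral DG (-0.45 to -0.01) are the only 2 that do not include 0.

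Other genes of the lineage did not share one direction by region. Of 25 further genes of mature oligodendrocytes, 1 was called in favour of dorsal and 4 in favour of ventral DG, and 5 and 9 passed the FDR alone, with a median log2 fold change of -0.12. These and the counts of the lists that follow stand beside 32.7% of all genes called and 58.4% passing the FDR, and nothing particular to a list is read from them. The largest were Klk6 at -1.13 ± 0.22 (SE), a secreted protease at low level here, Anln at -0.77 ± 0.07 (SE), which encodes a protein of the septin scaffold in myelin, and Gamt at -0.46 ± 0.06 (SE), an enzyme of creatine synthesis. Of 12 further precursor genes, 2 were called as dorsal-high and 4 as ventral-high, with a median of -0.22. Xylt1 at -0.47 ± 0.05 (SE) and Sox6 at -0.34 ± 0.06 (SE) were higher in ventral DG.

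Of 7 further genes of newly committed cells tested, Tns3 at -0.36 ± 0.06 (SE) was called and the median was 0.07. Of 15 signals and receptors that act on the lineage, 4 were called as dorsal-high and 2 as ventral-high, with a median of 0.20. Among these, Tgfa at 0.48 ± 0.04 (SE) was higher in dorsal DG, and Lif at -1.08 ± 0.18 (SE) and Shh at -0.46 ± 0.19 (SE) were higher in ventral DG. No gene of these 4 lists was called between EE and SH in either region by edgeR.

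The markers of other cell types are given beside the 32.7% of all genes that were called. Of 10 choroid plexus markers, 10 were called higher in ventral DG, and their summed level ran from 9.65 to 176 CPM per kilobase in dorsal and 348 to 1302 in ventral samples, the highest being EE replicate 3. Astrocyte markers were called higher in ventral DG for 4 of 10 with a median of -0.22, and their summed level was 1542 to 1877 CPM per kilobase in dorsal and 1833 to 2538 in ventral samples. Of 10 markers of granule cells and other neurons, 5 were called, each as dorsal-high, with a median of 0.36 over the 10. The called genes included Dsp at 1.47 ± 0.07 (SE), Stxbp6 at 0.97 ± 0.06 (SE) and Prox1 at 0.94 ± 0.06 (SE). By the FDR alone, 6 of the 10 passed as dorsal-high and 2 as ventral-high, so the list did not share one direction. The summed level of the 10 markers overlapped, at 1817 to 2131 CPM per kilobase in dorsal and 1704 to 2140 in ventral samples. Habenula and thalamus markers were called higher in dorsal DG for 6 of 10, Prkcd the most at 2.32 ± 0.08 (SE). The 1 called higher in ventral DG was Calb2 at -2.42 ± 0.13 (SE). Their summed level was 67.9 to 102.7 CPM per kilobase in dorsal and 83.6 to 117.4 in ventral samples. This sum includes Calb2 and was not taken without it.

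Of the microglia markers 1 of 8 was called, higher in ventral DG, and of the endothelial and pericyte markers 0 of 10 were called by edgeR while 3 passed the FDR. Of the peripheral myelin markers 1 of 4 tested was called, Egr2, higher in dorsal DG, with a median log2 fold change of 0.20 over the 4. No list had a marker at 0 in all samples of a group. The part of these cell types in the regional differences of Olig1, Olig2, Pdgfra, Myrf and the myelin genes was not tested.

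**Figure D5:**
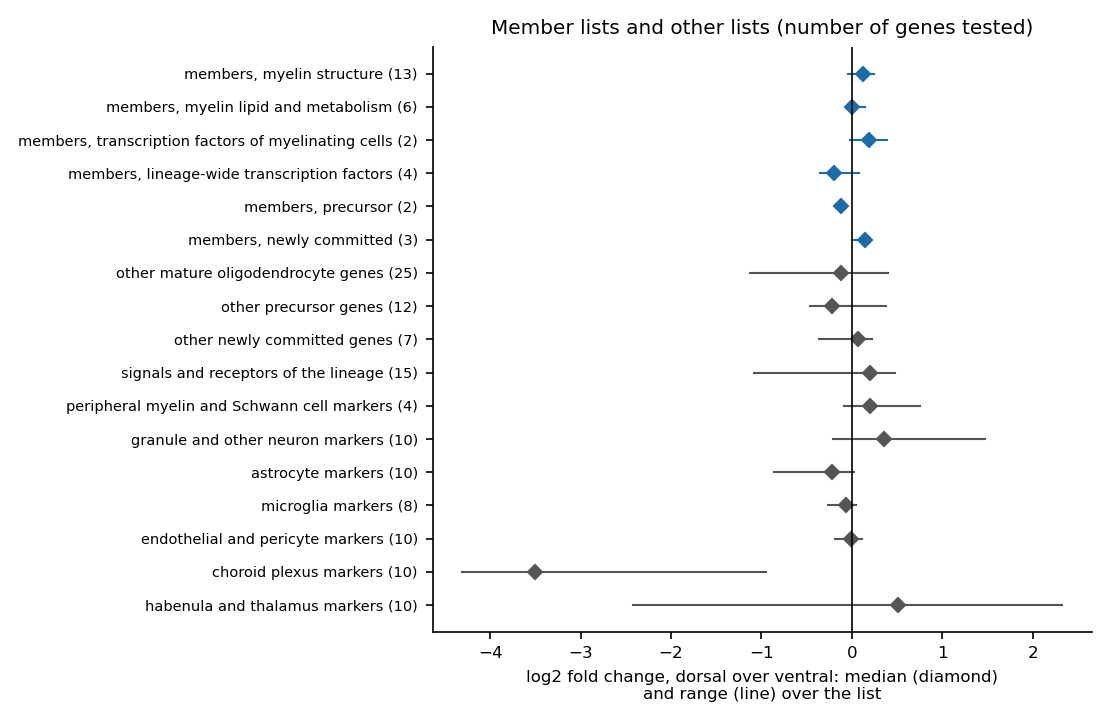
Median (diamond) and range (line) of the log2 fold changes of dorsal over ventral DG for the 6 roles of the members and for 11 other lists, with the number of genes tested. The medians of the member roles lie between -0.20 and 0.19, and the choroid plexus markers have a median of -3.50.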

How the data were processed

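RNA-Seq (stranded total RNA, paired ends) was made from 20 samples (10 pools), and 18 were analysed. SH replicate 3 was left out of both regions because the study excluded an SH sample for Xist, and its sample list gives that pool as mixed in sex. The authors trimmed reads with Trim Galore 0.4.0, aligned them to mm10 with STAR 2.5.1b, and deposited raw counts per gene, of which the reverse-strand column was used. Expected counts, TPM and FPKM were deposited by the authors from RSEM 1.2.30, per the labels. TPM values were not compared between samples because 39.4 to 55.3% of TPM lay on the 7SL RNAs Rn7s1 and Rn7s2, so CPM per kilobase of RSEM's effective length was used where summed TPM had been planned, and FPKM was not used. Of all fragments, 32.58 to 40.89% were unmapped, multimapping, ambiguous or outside genes and stayed out of library sizes. Names and coordinates came from Gencode on GRCm38 (45968 of 46480 IDs).

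Genes with over 10 counts in at least 2 samples were tested with edgeR 4.0.16 in R 4.3.3 (TMM, quasi-likelihood, 4 groups in 1 model, 2-sided, 95% intervals from the same fit), after a test on simulated data. Alternatives were DESeq2 1.42.0, other scalings, filters and counts, all 20 samples, pools as blocks and each pool left out, and an alternative without ventral EE replicate 3 alone was chosen after seeing the data. Figures used python 3.11.15 and matplotlib 3.10.9. Members and lists were chosen with earlier results of these data known. Full values are given for Mbp, Mog, Pdgfra, Cspg4, Gpr17 and Olig2, the 6 members with the smallest p by region, and the 2 with the smallest p in each housing comparison, and at most 3 called genes of each other list. Some genes of these lists are not reported here. Trf, Myrf, Olig1, Sox10, Bcas1, Gpr17, Fa2h and Mbp have no promoter shown or counted.

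Dorsal and ventral samples of a pool came from the same mice, per the study's figure legend, and their deviations from group means correlated at -0.08 to 0.19 over 9 pools. EE and SH samples with the same number correlated at 0.08 to 0.17 in dorsal and 0.11 to 0.16 in ventral DG (4 pairs each). The labels give no batch. The main fit did not use the pairing by pool, and its 18 samples entered as independent within 4 groups. Its p-values therefore measure the spread between samples of a group, each from a different pool. They do not measure the spread of within-pool differences between regions. The pairing entered only in the fit with pools as blocks. Samples of bisulfite and TAB sequencing were not analysed here.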

Additional observations from a re-analysis of the deposited data

Results flagged for a closer look

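In 12 of 120 sets of samples (30 members in 4 groups), 1 sample lay farther from the others than Dixon's test allows, where chance gives about 1 in 20, or 6 sets. Ventral EE replicate 3 was high in Myrf (16.4 CPM, the other 4 at 9.88 to 10.6) and in Tspan2 (74.8 CPM, the others at 51.9 to 58.5). Dorsal EE replicate 2 was high in Olig1 (73.1 CPM, the others at 61.1 to 62.8), Mog (31.2 CPM, the others at 25.7 to 27.2) and Cnp (225.3 CPM, the others at 192.5 to 202.0). Dorsal EE replicate 1 was high in Tspan2 (77.1 CPM, the others at 64.1 to 67.2) and Gjc3 (31.5 CPM, the others at 24.2 to 25.98). Dorsal EE replicate 4 was low in Nkx2-2 (1.06 CPM, the others at 1.74 to 1.99). Among SH samples, dorsal replicate 5 was low in Mal (114.6 CPM, the others at 134.2 to 137.9) and Gjc3 (23.0 CPM, the others at 27.4 to 27.9). Ventral SH replicate 1 was high in Mobp (454.3 CPM, the others at 335.4 to 347.3) and ventral SH replicate 2 was low in Trf (6.12 CPM, the others at 8.05 to 8.43).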

How the results depend on the processing

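None of the 12 members with full values changed sign with an FDR under 0.05 under any alternative run, and the EE effects and their difference called 0 members in each. Myrf, Mag, Tspan2, Cldn11, Olig1, Olig2 and Pdgfra passed the FDR by region over both housings in all 23 alternatives. Calls with a 20% fold change moved more, and the shares of all genes called in the other fits were not taken beside them. Over both housings 2 members were called, against 5 with all 20 samples, 9 with no fold limit and 2 to 6 with samples left out. In SH, 3 were called, against 6 with all 20 samples. In EE, 3 were called, against 5 with edgeR's own filter on low counts and 9 with no fold limit. With samples left out 2 to 10 were called in EE, and 6 with pools as blocks. For EE effects the block was the replicate number, and it changed no call. Since numbers pair EE with SH samples only by their correlation, the block by number is a hint from the data. Nkx2-2 rested on 26 to 67 fragments per sample, which limits its precision.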

Other observations

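SH replicate 3, left out of the comparisons, had a median mature level of 113.0% of the mean of the 18 analysed samples in dorsal and 80.4% in ventral DG. Its lineage-wide factors were at 105.0% and 105.3%, and its precursor and newly committed members at 100.0% and 109.5%. With these 2 samples added, 12 members passed an FDR of 0.05 by region over both housings in edgeR's quasi-likelihood test. Of these, Cldn11, Enpp6, Mag, Myrf and Olig1 were called. The share of all genes passing with 20 samples was not taken.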
